A study of Mus musculus with 6 samples.

Results

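The DNA replication machinery was described through 45 genes, chosen by symbol as the factors that license origins, unwind and copy DNA and supply its nucleotides. All 45 were matched to an Ensembl gene among the 38293 genes listed, and all 45 were among the 14396 genes tested. RNA came from fetal liver (FL) cells of C57BL/6 embryos at E14.5 that lacked lineage markers and carried the receptor c-Kit (Lin-cKit+), a gate that holds blood stem and progenitor cells, and every library was a single embryo. The 3 hnRNP L deficient embryos were VavCre+ hnRNP L fl/fl. In these, Cre recombinase from the Vav promoter is meant to delete both floxed *Hnrnpl* alleles in hematopoietic cells but not in the liver's hepatocytes. The other 3 embryos were labelled wild type (wt). The study's text writes these controls both as wt and as L fl/fl, and whether they carried undeleted floxed alleles was not settled here. The sort is given by the study's methods, whereas the labels name fetal liver cells as the source and whole embryo as the tissue.

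Before a cell divides, the origin recognition complex marks the places where copying can start, and CDC6 and CDT1 load onto them the ring of MCM2 to MCM7 that later unwinds the DNA. CDC45 and the GINS complex turn the ring into an active helicase, DNA polymerase alpha with its primase starts each strand, and polymerases delta and epsilon extend it while held by the PCNA clamp, which the RFC complex loads. The E14.5 fetal liver is the main blood-forming organ of the embryo and its progenitors divide quickly, and hnRNP L is an RNA-binding protein known for its part in splicing.

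Reads counted on genes summed to between 55952160 and 76157226 per library, at which depth 3 reads are worth between 0.0394 and 0.0536 CPM (counts scaled to a common library size by TMM factors). *Hnrnpl* itself was at 552, 531 and 528 CPM in wt replicates 1 to 3 and at 242, 288 and 269.5 CPM in the hnRNP L deficient ones, a log2 fold change of -1.01 ± 0.09 (SE; edgeR adjusted p = 0.00724). The groups did not overlap, and reads on the gene did not fall to 0 in any hnRNP L deficient library. The paper holds it possible that incompletely deleted cells with residual hnRNP L remained. Which exons or cells the remaining reads came from was not tested. Wt replicate 2 stood apart: the summed level of 6 granulocyte precursor genes was 7937 CPM in it, 557 and 1435 CPM in the other wt libraries and between 235 and 777 CPM in those of hnRNP L deficient embryos, so that member counts are given with and without it. Of 52 marker genes of these and other cell types, 49 were tested. By edgeR 11 (22.4%) were called lower in hnRNP L deficient cells, beside 9.85% of all genes, and 0 higher, beside 9.32%. At an unadjusted p under 0.05, 24 were lower (49.0%), beside 20.1% of all genes, and 1 higher (2.04%), beside 17.6%. The lower ones included the progenitor genes *Kit* (log2 fold change -0.62), *Cd34* (-2.21) and *Flt3* (-3.35). The summed level of the 6 stem and progenitor genes was between 604 and 904 CPM in wt and between 417 and 460.1 CPM in hnRNP L deficient libraries, whereas the 6 erythroid genes summed to 899 to 1095 CPM and 1021 to 1159 CPM. Hepatocyte genes summed to between 108 and 231 CPM in wt and between 21.0 and 71.2 CPM in hnRNP L deficient libraries, monocyte and macrophage genes to between 37.8 and 293 CPM in wt and between 10.5 and 56.9 CPM, and lymphoid genes to between 1.03 and 7.10 CPM and between 0.0932 and 0.536 CPM with *Dntt* at 0 reads in all 6 libraries. Endothelial genes summed to between 10.2 and 10.8 CPM and between 6.06 and 7.83 CPM, mast cell and basophil genes to between 22.5 and 90.9 CPM and between 13.5 and 54.1 CPM, and megakaryocyte genes to between 70.7 and 104 CPM and between 63.6 and 89.7 CPM. HnRNP L deficient replicate 1 also stood apart in its group. Its granulocyte precursor sum was 235 CPM, beside 777 and 733 CPM in replicates 2 and 3. Its monocyte and macrophage sum was 10.5 CPM, beside 49.1 and 56.9 CPM, and its hepatocyte sum 21.0 CPM, beside 71.2 and 66.7 CPM. Its erythroid, lymphoid and mast cell sums were the lowest of the group too, its stem and progenitor and endothelial sums the highest, and its megakaryocyte sum lay between. The part of these other cells in the values of the replication genes was not tested, and in bulk RNA fewer cells of a type and less RNA per cell cannot be told apart.

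Of the 45 replication genes, 4 rose and 1 fell in hnRNP L deficient cells. *Orc4*, *Mcm5*, *Pold2* and *Rrm2* were higher and *Rfc2* was lower at an adjusted p under 0.05 in edgeR's quasi-likelihood test with Benjamini-Hochberg adjustment over all genes tested. The members called higher were 8.89% of the 45, beside 9.32% of all genes tested, and the 1 called lower was 2.22%, beside 9.85% of all genes. For most of the others the data bounded the change: the 95% interval lay within 1.5-fold either way for 40 of the 45 members (88.9%), beside 40.8% of all genes tested, and the 5 members not so bounded were *Orc2*, *Orc4*, *Pold2*, *Rfc2* and *Rrm2*. At an unadjusted p under 0.05 there were 13 members higher (28.9%), beside 17.6% of all genes, and 5 lower (11.1%), beside 20.1% of all genes. With scaling to total counts that tally turned to 6 higher and 9 lower, while the median log2 fold change of all genes tested moved from -0.03 to -0.096. The share of all genes at that threshold was not taken in that fit. All hnRNP L deficient libraries lay above all wt libraries for 15 members (33.3%), beside 22.7% of all genes, and below them for 8 members (17.8%), beside 22.7% of all genes. The median log2 fold change was 0.06 over the members and -0.03 over all genes tested. The members were abundant genes, between 26.6 and 836 CPM in wt, and their standard errors of between 0.06 and 0.16 compare with a median of 0.16 over all genes.

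**Figure D1:**
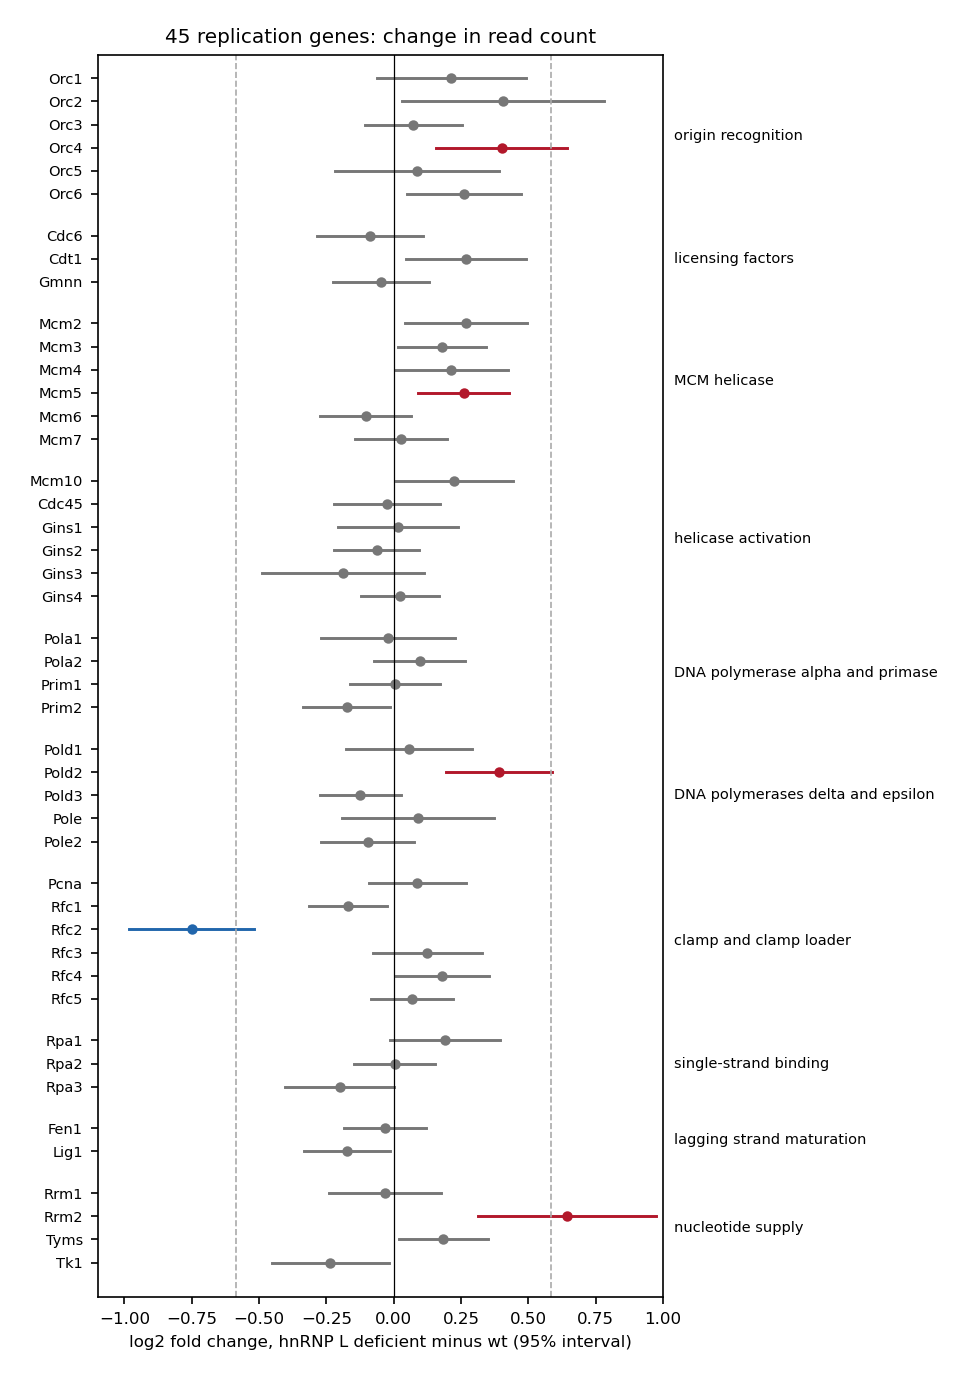
Change of each of the 45 replication genes, grouped by role. The horizontal axis is the log2 fold change of hnRNP L deficient over wt cells (3 libraries each), points are the estimates of edgeR and bars their 95% intervals, red and blue mark the members called higher and lower at an adjusted p under 0.05, grey the rest, and dashed lines mark 1.5-fold. Rfc2 stands alone on the left at -0.75 and Rrm2 lies farthest to the right at 0.64, while most of the others straddle 0.

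These calls depended on the libraries. When wt replicate 2 was left out, edgeR again called 4 members higher and 1 lower, and they were the same 5 genes. That fit called 11.4% of all 14651 genes tested higher and 12.7% lower. Leaving out wt replicate 1 gave 12 higher and 1 lower, in a fit that called 15.7% of all 14766 genes tested higher and 16.8% lower. Leaving out wt replicate 3 gave 0 calls in either direction, and so did leaving out hnRNP L deficient replicate 1, 2 or 3. In these 4 fits between 5 and 15 genes of the whole table were called higher and between 0 and 2 lower. DESeq2 called 8 members higher and 1 lower, beside 14.3% and 15.5% of all genes. Limma-voom with sample weights called 13 higher and 4 lower, beside 17.6% and 19.1% of all genes. With scaling to total counts edgeR called 3 higher and 4 lower, beside 7.40% and 12.2% of all genes. The median coefficient of variation of the members was 7.69% in wt and 2.29% in hnRNP L deficient cells, and over all genes tested it was 16.2% and 6.53%. Of the 45 members, 27 had their lowest wt value in wt replicate 2 and 9 their highest. Among the 55 further genes of the pathway described below, 32 had their lowest there and 10 their highest. The share over all genes was not taken.

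Many genes of DNA replication are known to be switched on at the start of S phase by E2F factors, which are held back by RB family proteins, and promoters of cell cycle genes often hold a CCAAT box. RefSeq promoter windows of GRCm38.p6, 300 bases each from 250 before to 50 after the annotated start, were matched by symbol to 37 of the 45 members. The other 8, *Gins1*, *Gins2*, *Gins4*, *Gmnn*, *Mcm4*, *Pole*, *Prim2* and *Rfc2*, had no window and were not searched. The windows were searched on both strands for the E2F-like letters TTTGGCGC, TTTCCCGC, TTTCGCGC and TTTGCCGC, for CCAAT, and for the cell cycle element CHR as TTTGAA. Matches may overlap, since several of the E2F-like letters can be read on both strands of a longer stretch. An E2F-like match was found in 15 of the 37 members (40.5%), beside 2.6% of the 27025 symbols in the table, and 5 of the 15 held 2 or more. CCAAT was found in 23 of 37 (62.2%), beside 41.1% of all symbols, and TTTGAA in 5 of 37 (13.5%), beside 20.2%. A match describes the letters of the window and not a bound site.

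The windows of *Mcm5*, *Pold2* and *Rrm2*, which were called higher, and of *Mcm6*, the member with the highest wt level per length, are shown to compare their letters. Capitals mark E2F-like letters and CCAAT on either strand, the sequence reads 5′ to 3′ on the strand of the gene, and the longest run of capitals in *Mcm5* and in *Mcm6* is a pair of overlapping E2F-like matches.
Mcm5, chr8:75109259-75109558, plus strand: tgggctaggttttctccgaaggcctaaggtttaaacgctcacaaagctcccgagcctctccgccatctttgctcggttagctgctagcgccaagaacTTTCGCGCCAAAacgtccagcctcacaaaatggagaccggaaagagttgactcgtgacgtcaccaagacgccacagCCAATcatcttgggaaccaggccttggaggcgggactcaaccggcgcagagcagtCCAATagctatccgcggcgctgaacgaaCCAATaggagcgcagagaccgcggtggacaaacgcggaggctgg
Pold2, chr11:5878207-5878506, minus strand: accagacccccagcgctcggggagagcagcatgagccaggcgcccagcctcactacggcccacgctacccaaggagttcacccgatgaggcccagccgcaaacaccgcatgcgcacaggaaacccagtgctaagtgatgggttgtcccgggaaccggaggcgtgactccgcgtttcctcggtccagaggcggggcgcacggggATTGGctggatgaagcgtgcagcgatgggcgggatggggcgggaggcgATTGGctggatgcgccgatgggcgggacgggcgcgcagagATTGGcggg
Rrm2, chr12:24708004-24708303, plus strand: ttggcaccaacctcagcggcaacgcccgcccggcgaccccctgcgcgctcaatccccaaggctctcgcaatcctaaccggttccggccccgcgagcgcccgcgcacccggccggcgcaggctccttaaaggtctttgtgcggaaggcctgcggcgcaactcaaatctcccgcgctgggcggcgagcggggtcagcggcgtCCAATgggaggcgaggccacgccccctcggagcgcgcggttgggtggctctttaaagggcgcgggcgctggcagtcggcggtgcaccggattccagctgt
Mcm6, chr1:128359656-128359955, minus strand: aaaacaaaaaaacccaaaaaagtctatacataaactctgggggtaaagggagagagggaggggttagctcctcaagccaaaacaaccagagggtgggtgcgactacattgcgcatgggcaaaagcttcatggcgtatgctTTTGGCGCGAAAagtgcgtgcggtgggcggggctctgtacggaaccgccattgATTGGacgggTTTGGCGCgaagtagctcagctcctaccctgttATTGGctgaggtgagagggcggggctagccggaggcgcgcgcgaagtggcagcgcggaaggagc
*Mcm5* had 2 overlapping E2F-like matches and 3 CCAAT, and *Mcm6* had 3 E2F-like matches, of which 2 overlap, and 2 CCAAT. *Pold2* and *Rrm2* had none of the E2F-like letters but 3 and 1 CCAAT. The 3 windows of *Orc4* held none of the E2F-like letters. In each other role that held an E2F-like match, the stretch around the first match of the most highly expressed such member was as follows, with the E2F-like letters in capitals.
Orc3, chr4:34614966-34614993, minus strand: catgcctcccTTTCCCGCacgccccgcc
Cdt1, chr8:122568037-122568064, plus strand: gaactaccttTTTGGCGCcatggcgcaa
Gins3, chr8:95633508-95633535, plus strand: cgagtgcggcGCGGGAAAgcgagtttga
Pola1, chrX:93632276-93632303, minus strand: tcatcacaggGCGCCAAAtgcactcccg
Pold1, chr7:44548766-44548786, minus strand: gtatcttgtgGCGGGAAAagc
Rfc3, chr5:151651201-151651228, minus strand: cgtcgcacgcTTTCGCGCtcGCGGGAAA
Lig1, chr7:13278842-13278869, plus strand: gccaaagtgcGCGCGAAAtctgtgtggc
Members with such a match lay on both sides of 0. *Cdt1* had a log2 fold change of 0.27, *Mcm5* of 0.26 and *Orc3* of 0.07, whereas *Mcm6* stood at -0.10, *Lig1* at -0.17 and *Gins3* at -0.19.

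All 6 *Orc* genes, which encode the subunits of the complex that binds origins, had a positive log2 fold change, between 0.07 and 0.41, and only *Orc4* passed the test. *Orc4* was at 66.5, 51.3 and 55.5 CPM in the wt libraries, in the order of their numbers, and 75.2, 78.2 and 75.2 CPM in those of hnRNP L deficient embryos (log2 fold change 0.40 ± 0.10 (SE), edgeR adjusted p = 0.0382). Its lowest hnRNP L deficient library lay above its highest wt library, and among the members it had the lowest wt level per length. *Orc2* had the largest estimate of the role, 0.41 ± 0.16, and did not pass (edgeR adjusted p = 0.111). Its values were 254, 159.8 and 189.8 CPM in wt and 263, 265 and 271 CPM in hnRNP L deficient libraries. The hnRNP L deficient libraries lay in a narrow band just above wt replicate 1, and the wt libraries were spread. *Orc1* (0.21), *Orc3* (0.07) and *Orc5* (0.08) had overlapping groups, and *Orc6* (0.26) had separated groups and an unadjusted p of 0.0225 without a call. *Orc2* had the highest wt level per length of the 6, at 52.1 ± 12.4 CPM per kb of exon (SD, n = 3). The sum of *Orc1* to *Orc6* per length was 195, 148 and 161 CPM per kb in wt and 200.2, 202 and 202 CPM per kb in hnRNP L deficient libraries. The groups did not overlap, but an exact permutation test (two-sided) gave p = 0.1, the smallest that 3 libraries against 3 allow.

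The licensing factors were not called. *Cdt1*, which brings the MCM ring to the origin, was at 219.7, 209.6 and 259.7 CPM in wt and 278, 281 and 271 CPM in hnRNP L deficient libraries, all 3 of the latter above wt (log2 fold change 0.27 ± 0.09 (SE), edgeR adjusted p = 0.0840). *Gmnn*, which encodes the CDT1 inhibitor geminin and had the highest wt level per length of the role, was at 115, 117 and 102 CPM and 107, 110.3 and 106 CPM, and the groups overlapped (log2 fold change -0.05 ± 0.08 (SE), edgeR adjusted p = 0.687). *Cdc6* was likewise not called, with a log2 fold change of -0.09. The ratio of *Cdt1* to *Gmnn* per length was 0.890, 0.834 and 1.19 in wt libraries and between 1.19 and 1.21 in hnRNP L deficient libraries (exact permutation test, two-sided, p = 0.2).

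The 6 subunits of the MCM ring had estimates on both sides of 0. *Mcm5* was at 649.6, 619 and 645 CPM in wt and 782, 757 and 751 CPM in hnRNP L deficient libraries (log2 fold change 0.26 ± 0.07 (SE), edgeR adjusted p = 0.0455), and the gap between the groups was larger than the SD of 16.4 CPM in wt and 16.5 CPM in hnRNP L deficient cells. The call of *Mcm5* held in 7 of 13 alternatives and ended with scaling to total counts (edgeR adjusted p = 0.0699), without the filter on low counts (0.0749), and without wt replicate 3 or any 1 hnRNP L deficient library. *Mcm2*, *Mcm3* and *Mcm4* had log2 fold changes of 0.27, 0.18 and 0.21, with every hnRNP L deficient library above every wt library and unadjusted p of 0.0260, 0.0371 and 0.0459, and none of the 3 was called. *Mcm6* was the one subunit with a negative value. It was at 816, 783 and 772 CPM in wt and 743, 744 and 719 CPM in hnRNP L deficient libraries, where all 3 lay below wt without a call (log2 fold change -0.10 ± 0.07 (SE), edgeR adjusted p = 0.326). *Mcm7* stood at 0.03 and its groups overlapped.

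Expressed per length, the 6 MCM genes summed to 845, 779 and 811 CPM per kb in wt and 905, 895 and 877 CPM per kb in hnRNP L deficient libraries. *Mcm6* held 20.7%, 21.5% and 20.4% of that sum in wt and 17.6%, 17.8% and 17.6% in hnRNP L deficient libraries. *Mcm5* held 19.2%, 19.9% and 19.9% in wt and 21.7%, 21.2% and 21.5% in hnRNP L deficient libraries. *Mcm6* had rank 1 of the 45 members by level per length in wt, at 169 ± 4.93 CPM per kb (SD, n = 3), and rank 5 in hnRNP L deficient cells, at 158 ± 3.14 CPM per kb. Each of these shares was separated between the groups, with an exact permutation p (two-sided) of 0.1, the smallest possible here. Shares within 1 sum are not independent of each other.

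**Figure D2:**
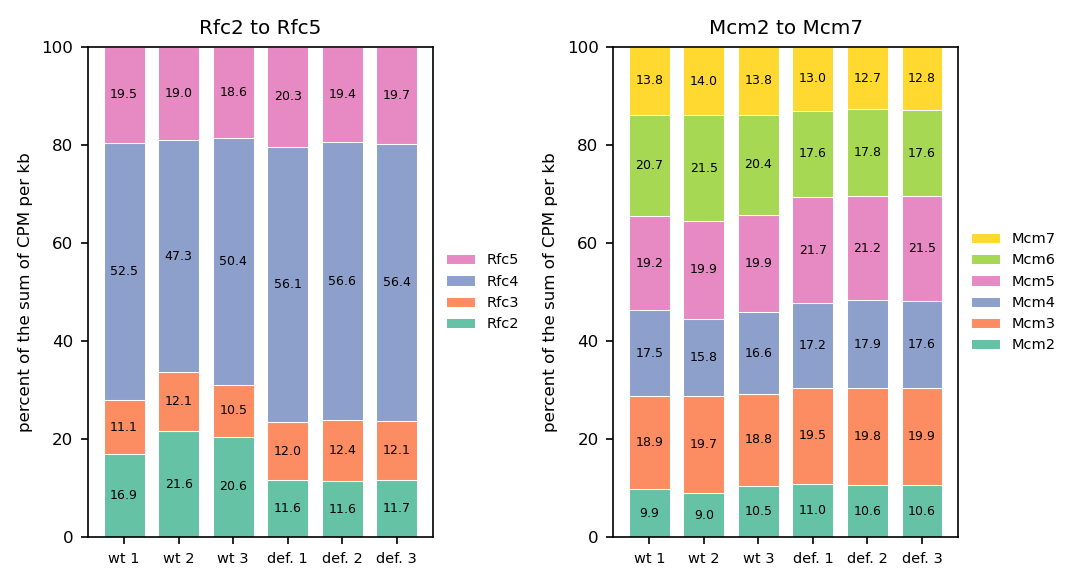
Share of each subunit in the summed level (CPM per kb of exon, in percent) of the small clamp loader subunits Rfc2 to Rfc5 (left) and of the MCM ring (right), 1 bar per library (wt 1 to 3, and def. 1 to 3 for the hnRNP L deficient replicates). Rfc2 takes 16.9% to 21.6% in wt and 11.6% to 11.7% in hnRNP L deficient libraries, and Mcm6 takes 20.4% to 21.5% and 17.6% to 17.8%.

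The factors that activate the helicase were not called in either direction. *Mcm10*, which acts as the ring begins to unwind, had the largest estimate at 0.23 ± 0.09 (SE) and an unadjusted p of 0.0433. *Cdc45* stood at -0.02 and the 4 GINS genes lay between -0.19 and 0.02. *Gins4*, the highest of the role by wt level per length, was at 62.6, 64.7 and 62.0 CPM in wt and 63.4, 64.8 and 64.1 CPM in hnRNP L deficient libraries, and the groups overlapped within a few CPM (log2 fold change 0.02 ± 0.06 (SE), edgeR adjusted p = 0.813). Its 95% interval ran from -0.12 to 0.17. For DNA polymerase alpha and its primase, too, 0 of 4 genes were called by edgeR, and 1, *Prim2* at -0.18, had an unadjusted p under 0.05. *Pola1* stood at -0.02 and *Pola2* at 0.10. *Prim1*, the catalytic primase subunit, was at 129.8, 119 and 131 CPM and 122, 129 and 129.9 CPM, a log2 fold change of 0.0052 with a 95% interval from -0.16 to 0.17.

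Of the 5 genes of DNA polymerases delta and epsilon, *Pold2* was called. It encodes the accessory subunit that joins the catalytic subunit of polymerase delta to the others, and it was at 116, 103 and 117 CPM in wt and 157, 139 and 145 CPM in hnRNP L deficient libraries (log2 fold change 0.39 ± 0.08 (SE), edgeR adjusted p = 0.0255). All 3 hnRNP L deficient values lay above all wt values. The catalytic subunits were not called, *Pold1* with a log2 fold change of 0.06 and *Pole* with 0.09, both with overlapping groups. *Pold3* stood at -0.12, with every hnRNP L deficient library below wt and no call, and *Pole2* at -0.10. Per length *Pold2* had the highest wt level of the role, 59.1 ± 4.05 CPM per kb (SD, n = 3), and reached 77.5 ± 4.97 CPM per kb in hnRNP L deficient cells.

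The clamp loader held the one member called lower. *Rfc2*, a small subunit of the RFC complex that opens the PCNA ring, was at 149.9, 190.1 and 176 CPM in wt and 98.3, 104 and 104 CPM in hnRNP L deficient libraries, which is 0.594 times the wt level (95% interval 0.506 to 0.698; log2 fold change -0.75 ± 0.10 (SE), edgeR adjusted p = 0.0125). The highest hnRNP L deficient library was well below the lowest wt library, and the 3 hnRNP L deficient values were within a few CPM of each other. The remaining small subunits *Rfc3*, *Rfc4* and *Rfc5* had log2 fold changes of 0.13, 0.18 and 0.07, and the large subunit *Rfc1* of -0.17, none of them called. *Pcna*, the clamp and the highest of the role by wt level per length, was at 411, 369.6 and 390.1 CPM in wt and 401, 424 and 419.7 CPM in hnRNP L deficient libraries with overlapping groups (log2 fold change 0.09 ± 0.08 (SE), edgeR adjusted p = 0.430). The pseudogene *Pcna-ps2* took 6322 reads over the 6 libraries beside 158197 for *Pcna*. Reads that did not align uniquely were counted on neither copy, and how many *Pcna* lost that way was not tested.

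The share of *Rfc2* within the small subunits was lower, which rests on the same counts as its call. Per length, *Rfc2* to *Rfc5* together stood at 140.4, 139 and 136 CPM per kb in wt and 134, 143 and 141 CPM per kb in hnRNP L deficient libraries (exact permutation test, two-sided, p = 0.8). *Rfc2* made up 16.9%, 21.6% and 20.6% of this sum in wt libraries and 11.6%, 11.6% and 11.7% in hnRNP L deficient libraries. *Rfc4* took 52.5%, 47.3% and 50.4% and then 56.1%, 56.6% and 56.4%. Neither subunit's groups overlapped (exact permutation p, two-sided, 0.1 for each, the smallest possible). These shares are parts of 1 sum, so a lower *Rfc2* by itself raises the share of *Rfc4*, which was not called. Among the 45 members *Rfc2* had rank 29 by level per length in wt and rank 41 in hnRNP L deficient cells.

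**Figure D3:**
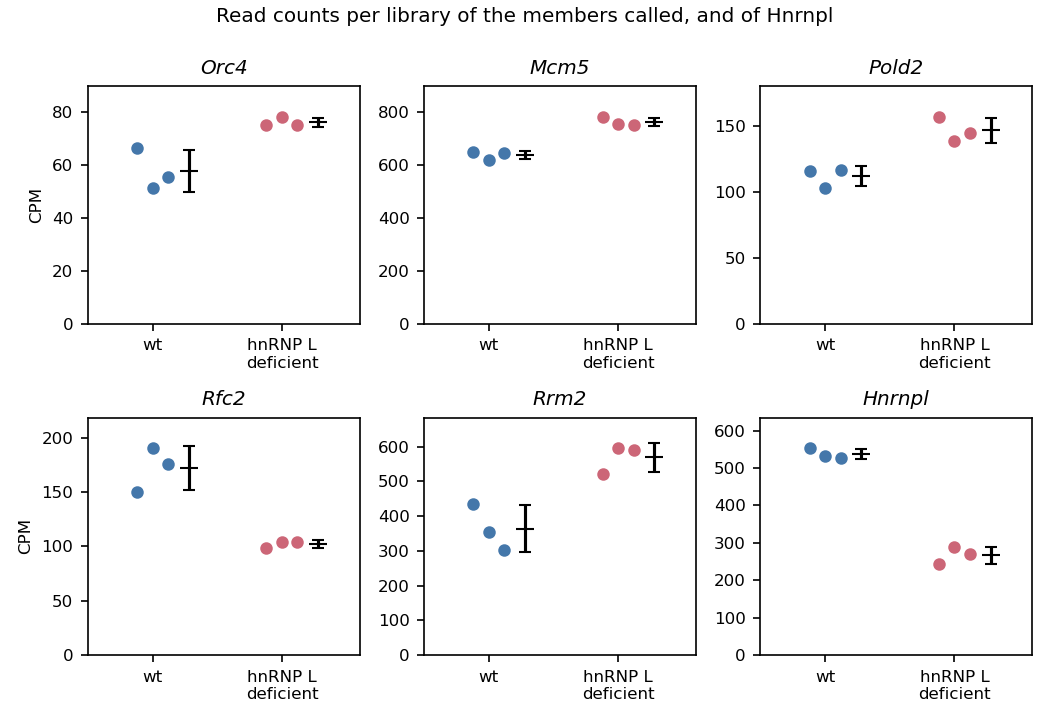
Normalised counts (CPM, vertical axis from 0) of the 5 members called and of Hnrnpl in every library. Points are single embryos, wt in blue and hnRNP L deficient in red, and the bars beside them give mean and SD (n = 3). In all 6 panels the groups are separated, and the wt points are more spread than the hnRNP L deficient ones for Orc4, Rfc2 and Rrm2.

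The single-strand binding proteins were not called. *Rpa1*, the large subunit of RPA and the highest of its role per length, was at 352, 299 and 304 CPM in wt and 361, 372 and 357 CPM in hnRNP L deficient libraries, all above wt (log2 fold change 0.19 ± 0.09 (SE), edgeR adjusted p = 0.157). *Rpa2* stood at 0.0036 and *Rpa3* at -0.20, the latter with every hnRNP L deficient library below wt. For the lagging strand, *Fen1*, the flap endonuclease that trims Okazaki fragments, was at 266, 266 and 278 CPM and 264, 266 and 262 CPM with overlapping groups (log2 fold change -0.03 ± 0.06 (SE), edgeR adjusted p = 0.752). *Lig1*, the ligase that seals them, was at -0.17 with an unadjusted p of 0.0367 and was not called.

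Among the enzymes of nucleotide supply, *Rrm2* had the largest rise of all 45 members. It encodes the regulated small subunit of ribonucleotide reductase, which makes the deoxyribonucleotides for DNA synthesis. *Rrm2* was at 435, 355 and 302 CPM in wt and 520.3, 595 and 592 CPM in hnRNP L deficient libraries, 1.56 times the wt level (95% interval 1.24 to 1.97; log2 fold change 0.64 ± 0.14 (SE), edgeR adjusted p = 0.0266). The groups did not overlap, and wt replicate 1 was the nearest to the hnRNP L deficient libraries. *Rrm1*, the large subunit of the same enzyme, was at 913, 766 and 829 CPM and 803, 833 and 815 CPM, and its groups overlapped (log2 fold change -0.03 ± 0.09 (SE), edgeR adjusted p = 0.815). The ratio of *Rrm2* to *Rrm1* per length was therefore 1.89, 1.84 and 1.45 in wt and 2.57, 2.84 and 2.89 in hnRNP L deficient libraries (exact permutation test, two-sided, p = 0.1). By level per length *Rrm2* had rank 6 in wt and rank 1 in hnRNP L deficient cells. *Tyms*, which makes thymidylate, stood at 0.18 and *Tk1*, which salvages thymidine, at -0.24, each with separated groups, an unadjusted p of 0.0331 and 0.0380, and no call.

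Since hnRNP L is known to act on splicing, the exons of the members were also examined, in the 5 libraries with exon bins used here (wt replicates 1 to 3, hnRNP L deficient replicates 2 and 3). Exon bins are the pieces into which the annotation cuts a gene's exons. Of 1039 bins of the 45 members 954 reached 10 reads on average and were tested for usage, the change of a bin relative to its gene. None was called by edgeR's diffSpliceDGE (0 of 954, beside 0.0288% of all bins tested) or by limma's diffSplice, and 8 and 20 had an unadjusted p under 0.05 by these tools. The share of 0.839% by diffSpliceDGE compares with 1.02% over all bins, and for limma no share over all bins was taken. Both diffSpliceDGE shares lie under the threshold of 0.05 itself, so the test was cautious in these 5 libraries. The 0 calls therefore do not show that usage was unchanged. Of 829 member bins that reached 100 reads on average, the estimate of 826 lay within 1.5-fold. The bins of *Orc5* and *Mcm7* belong to units merged with an overlapping gene.

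The bin with the smallest unadjusted p was bin 23 of *Pold3*, with an unadjusted p of 0.00456 in the edgeR fit, which held 16, 18 and 20 reads in wt and 6 and 0 reads in hnRNP L deficient libraries. It was followed by bin 5 of *Rfc3*, with an unadjusted p of 0.0264 and 120, 197 and 138 reads in wt and 89 and 125 in hnRNP L deficient libraries, and by bin 24 of *Prim1*, with an unadjusted p of 0.0409 and 5, 8 and 8 reads and then 23 and 25 reads. The adjusted p of diffSpliceDGE was 1.00 for each. The first and the third rest on few reads. Scaled to library size, the groups were separated in all 3 bins.

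The change of *Rfc2* and *Rrm2* ran along the whole transcript. All 11 bins of *Rfc2* were tested, and their mean level in hnRNP L deficient libraries was between 55.0% and 61.9% of wt. The log2 usage change of these bins was between -0.10 and 0.07. In *Rrm2* 17 of 18 bins were tested and stood between 144% and 180.1% of wt, with usage changes between -0.13 and 0.19. *Rfc2* overlaps *Lat2* on the opposite strand by 1784 bases, and *Lat2* itself was at 1.85, 9.46 and 4.29 CPM in wt and 0.652, 1.59 and 1.06 CPM in hnRNP L deficient libraries. Whether the counting used the strand is not given in the sources used here, so reads of the overlap cannot be told apart, and their part in the values of *Rfc2* was not tested.

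**Figure D4:**
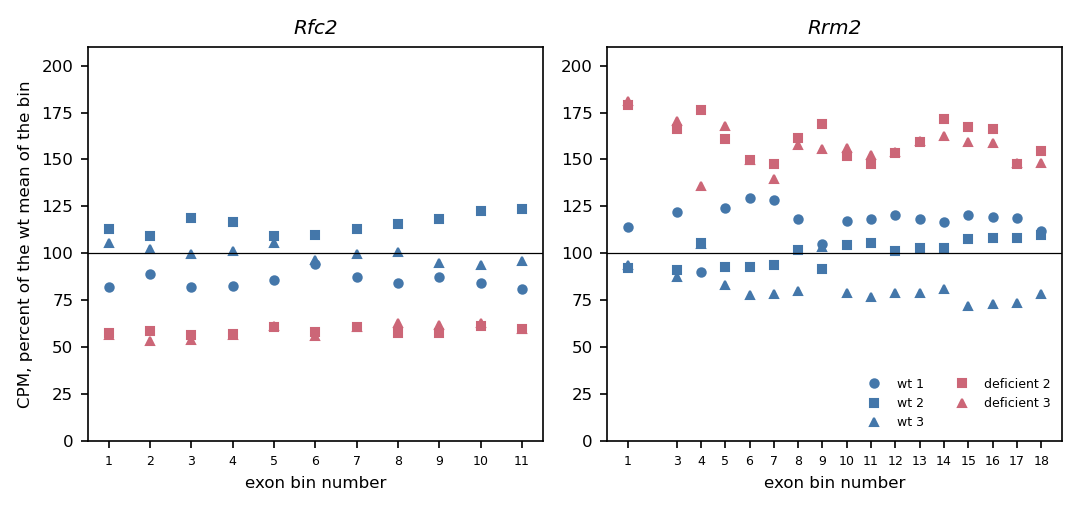
Level of each tested exon bin of Rfc2 (left) and Rrm2 (right) in 5 libraries, as CPM in percent of the mean of the 3 wt libraries for that bin (vertical axis) against the bin number (horizontal axis). Blue symbols are wt replicates 1 to 3 and red symbols hnRNP L deficient replicates 2 and 3. The red symbols lie below all blue ones in every bin of Rfc2 and above all blue ones in every bin of Rrm2.

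A further 55 genes of the pathway, none of them a member, were all tested, and 6 were called higher (10.9%) and 2 lower (3.64%) by edgeR, beside 9.32% and 9.85% of all genes tested, while 47 were not called. Their median log2 fold change was 0.10. Without wt replicate 1 the counts were 17 higher and 5 lower, beside 15.7% and 16.8% of all genes. Without wt replicate 3 or any 1 hnRNP L deficient library they were 0 and 0. In those fits between 5 and 15 genes of the whole table were called higher and between 0 and 2 lower. Of 16 genes of E2F, RB and cyclin-CDK control, 2 were called higher and 2 lower, 12.5% in each direction. *Cdc25a*, the phosphatase that activates CDK2, was at 209, 166 and 163 CPM in wt and 286, 269 and 281 CPM in hnRNP L deficient libraries (log2 fold change 0.64 ± 0.11 (SE), edgeR adjusted p = 0.0165). *Ccne1*, which encodes the cyclin E1 of S phase entry, was at 218, 127 and 155 CPM and 271, 273 and 265 CPM (log2 fold change 0.70 ± 0.18 (SE), edgeR adjusted p = 0.0402). In both genes every hnRNP L deficient library lay above every wt library, and in both wt replicate 1 was the highest of the wt libraries.

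Of the RB family, whose proteins bind E2F factors, *Rbl1* and *Rbl2*, which encode p107 and p130, fell, and *Rb1* was not called (log2 fold change 0.0053, edgeR adjusted p = 0.984) with overlapping groups. *Rbl2* was at 59.1, 66.9 and 65.1 CPM in wt and 44.9, 49.3 and 48.4 CPM in hnRNP L deficient libraries (log2 fold change -0.42 ± 0.08 (SE), edgeR adjusted p = 0.0195). *Rbl1* was at 126, 119 and 131 CPM and 95.8, 108 and 106 CPM (log2 fold change -0.28 ± 0.08 (SE), edgeR adjusted p = 0.0436), and in neither gene did the groups overlap. Among 9 genes of initiation *Recql4*, a helicase needed to start replication, was called, at a log2 fold change of 0.38 ± 0.09 (SE). Of 16 fork and accessory genes *Chtf8* (0.36 ± 0.09) and *Chtf18* (0.25 ± 0.07) were called higher. Both encode subunits of an alternative clamp loader that shares the small subunits *Rfc2* to *Rfc5*. Of 8 further nucleotide enzymes *Rrm2b*, the p53-inducible small subunit of ribonucleotide reductase, was called higher (0.46 ± 0.13) from a low level, 11.9, 9.57 and 10.5 CPM in wt and 14.6, 15.0 and 14.3 CPM in hnRNP L deficient libraries. None of 6 chromatin assembly and maintenance genes was called by edgeR, and 1, *Asf1b*, was higher at an unadjusted p under 0.05.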

How the data were processed

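Stranded mRNA libraries of 6 embryos were sequenced as paired ends. Per the labels' processing notes and the study's methods, TopHat2 2.0.10 was used to align the reads to GRCm38 (mm10), and HTSeq and the DEXSeq script to count them per Ensembl gene and per exon bin. The authors deposited whole-number counts with no scaling. The Ensembl release and the strand option of the counting are not given in the sources used here. HTSeq rows that name no gene were left out of library sizes: between 39.8% and 44.7% of all reads did not align uniquely and between 5.87% and 8.37% fell on no gene. For hnRNP L deficient replicate 1 no exon bins were used here.

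Symbols and positions came from GENCODE M21 of the same build. The main test was that of edgeR 4.0.16 under R 4.3.3 (TMM, default expression filter, robust quasi-likelihood fit without covariates, 3 wt against 3 hnRNP L deficient libraries, genes called at a Benjamini-Hochberg adjusted p under 0.05 over 14396 genes). SE is the log2 fold change over the root of F, and 95% intervals use its t quantile. The 5 libraries with exon bins were compared with diffSpliceDGE on bins reaching 10 reads on average. DEXSeq was not used here. Alternatives were DESeq2 1.42.0, limma 3.58.1, other scalings and filters, and leaving out each library. The steps were tested on simulated data, with 4-fold changes in well covered genes and 3-fold changes in well covered bins. The simulated counts had the same fixed spread in both groups, for genes smaller than the common spread fitted to the data. They therefore do not test the steps at the spread of these libraries. A first version of the gene step with 2-fold changes from 10 reads on had fallen short of the recovery set for it, and both steps missed some 2-fold changes at that depth, so changes of that size can go uncalled. Exact permutation tests enumerate all splits of 3 against 3. Depth makes counting error small for the members, and the spread between embryos limits precision. The labels give wt and hnRNP L deficient replicate 1 a common number prefix, and hnRNP L deficient replicates 2 and 3 another. What it marks is not stated, its part in the spread was not tested, and p-values measure the spread between these embryos.

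The members, the further genes, the markers and the motifs were chosen with earlier results of these data known. Every member with an adjusted p under 0.05 and the most highly expressed member of each role were given per library, as were the 3 member bins with the smallest p. The further genes called were given per library too, except *Recql4*, *Chtf8* and *Chtf18*, given as log2 fold change and SE only. *Cdt1* and *Rrm1* were given in addition after their values were seen. Promoter sequences were from RefSeq (GRCm38.p6).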

Additional observations from a re-analysis of the deposited data

How the results depend on the processing

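The members called lower, the members called higher and the further genes of the pathway were recounted under each alternative. DESeq2 called 8 members higher. With total counts as the scale, 4 members and 4 further genes were lower, beside 12.2% of all genes. The members' median log2 fold change was then -0.015, and *Prim1* (-0.065) and *Gins4* (-0.048) turned negative. Without a filter on low counts 1 further gene was lower, beside 5.71% of all genes, and the median was 0.082. With limma-voom and sample weights 13 members were higher and 4 lower, and 18 further genes higher and 4 lower, beside 17.6% and 19.1% of all genes. The median in that fit was 0.032, and *Prim1* (-0.0071) and *Gmnn* (0.024) changed sign. *Prim1* also turned negative with a mean of at least 1 CPM (-0.0081). Leaving out each library in turn gave 0 to 12 members higher, 0 to 1 lower, 0 to 17 further genes higher, 0 to 5 lower, a median of 0.033 to 0.097, and for *Prim1* -0.036 to 0.036. These fits called 0.0341% to 15.7% of all genes higher and 0% to 16.8% lower. For *Hnrnpl* the range was -1.05 to -0.94, with an edgeR adjusted p between 0.0517 and 0.0854 without wt replicate 3 or any 1 hnRNP L deficient replicate. The cause of these shifts was not tested. *Rfc2* stayed between -0.84 and -0.67 under all 13 alternatives and was called in 9 of them. Under an unadjusted p under 0.01 with a change above 2-fold, 1 member exon bin, bin 23 of *Pold3*, passed, and it held 0 to 20 reads per library. The number of member exon bins called was 0 under the other alternatives. Leaving out 1 of the 2 hnRNP L deficient libraries with bins leaves 1, assumed to vary like wt, so a count of 0 there says little. No paired analysis was possible because the labels of the 2 groups share only 1 number prefix, and nothing says what it marks.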
